A study of Mus musculus with 7 samples.

Results

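The contact maps described here are those of mouse neural progenitor cells (NPCs), measured by chromosome conformation capture carbon copy (5C) in 2 libraries, out of 4 libraries of this assay and 7 samples in the series. They were chosen by their cell type label and are described by themselves, without a test against the parent embryonic stem (ES) cells. The NPCs came from V6.5, a male ES line of mixed 129SvJae x C57BL/6 strain, grown as embryoid bodies for 4 days in the absence of the self-renewal factor LIF, then selected for 5 to 7 days in ITSFn medium and expanded for 2 to 4 days with Fgf2. Cells were fixed at subconfluence in 1% formaldehyde and their chromatin was cut with HindIII. Both libraries carry this same history and no agent or allele sets them apart. The libraries carry numbers, but separate cultures are not stated, and the spread between them may be technical. Both come from one parent line, and a contact table holds no marker gene levels, so the progenitor label could not be checked against markers.

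In 5C, fragments that lie close together in the nucleus are ligated, and each ligation between a fragment with a forward primer and a fragment with a reverse primer is read as one product. Contact frequency falls with distance along the chromosome. On top of this decay, mammalian chromatin is folded into domains within which fragments meet more often than across their boundaries, and many such boundaries are bound by the insulator protein CTCF and by cohesin, the ring complex that extrudes and holds chromatin loops. Each assayed region was placed around a gene of interest. Oct4, Nanog, Sox2 and Klf4 are transcription factors of the pluripotent state, and Sox2 is also a factor of neural stem and progenitor cells. Nestin is an intermediate filament protein used as a marker of neural progenitors, and Olig1 and Olig2 are basic helix-loop-helix factors of the oligodendrocyte and motor neuron lineages. A gene desert served as negative control.

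The 7 regions held 86767 pairs of a forward and a reverse fragment. Oct4 was the largest, with 22344 pairs over 2099 kb, followed by Olig1-Olig2 with 17024 pairs over 1138 kb and Sox2 with 15367 pairs over 992 kb. The Klf4 region had 14762 pairs over 989 kb, Nestin had 9486 pairs over 1086 kb, and the Nanog region, named Nanog-V2 in the table, had 7209 pairs over 1134 kb. The gene desert had 575 pairs over 196 kb. Neighbouring assayed fragments lay a median of 2.89 kb (Klf4) to 4.95 kb (Oct4) apart. The table gives distances and no chromosome coordinates, so positions below count kb from the assayed fragment with the lowest number in a region, and where the named gene lies within its region was not used here. Forward and reverse fragments are written FOR and REV with their number in the table.

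Library 1 held 15899829 reads and library 2 held 42673906 reads, and 18.9% and 22.2% of the pairs had 0 reads. A pair with 0 reads may still make up to 1.89e-05% of library 1 or 7.03e-06% of library 2 (3 reads of the total, covering counting error only, since amplified reads are not independent molecules). Across pairs, log2(count + 1) of the libraries had r = 0.829, from 0.805 in Sox2 to 0.903 in the gene desert. The Oct4 region took 54.1% and 58.2% of all reads. Within it, 3 pairs alone made up 19.7% of library 1 and 27.2% of library 2. FOR024 with REV005, 88.8 kb apart, had 2274097 and 9079305 reads. FOR024 with REV025, 2.45 kb apart, had 547682 and 1324170 reads, and FOR406 with REV190, 856 kb apart, had 307109 and 1196478 reads. These are the 3 pairs with most reads over both libraries together.

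Within NPCs the 7 regions lost contacts at different rates with distance, and the Sox2 region kept its distant contacts best. The decay slope, fitted between 10 kb and 1 Mb as log10(scaled count + 1) over log10 distance, was -0.67 and -0.68 in the 2 libraries for Sox2 (mean -0.67 ± 0.0106, SD, n = 2). The steepest slopes were those of Nestin, -1.28 and -1.35 (-1.32 ± 0.0541), and Oct4, -1.24 and -1.35 (-1.30 ± 0.0775), and these overlapped each other. Klf4 had -1.03 and -1.04 (-1.04 ± 0.00474). Nanog had -1.03 and -0.97 (SD 0.0437), Olig1-Olig2 -0.95 and -0.99 (-0.97 ± 0.0253) and the gene desert -0.92 and -0.99 (-0.95 ± 0.0485). The last 3 overlapped one another, whereas both Sox2 values lay above those of every other region. The gene desert spans only 196 kb, so its fit ends there. With 2 values a region, an exact test of 2 regions cannot give a p under 0.333, so the slopes are given without a test.

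The regions parted beyond 150 kb. From 10 to 150 kb, the range that all 7 regions hold, the mean slopes ran only from -0.85 in Sox2 to -0.99 in Nestin, with -0.86 in Oct4, -0.89 in the gene desert, -0.92 in Klf4, -0.92 in Nanog and -0.94 in Olig1-Olig2. From 150 kb to 1 Mb, Sox2 was at -0.66 ± 0.0305 (SD, n = 2), Olig1-Olig2 at -1.03, Nanog at -1.13, Klf4 at -1.24, Oct4 at -1.46 and Nestin at -1.59 ± 0.0971. The median reads show this for Sox2 and Nestin. Under 10 kb, a Sox2 pair had a median of 302 and 289 scaled reads (scaled to library 1) and a Nestin pair had 517 and 652. Between 500 kb and 1 Mb, a Sox2 pair still had 5 and 3.51, with 20.7% and 22.5% of pairs at 0, whereas a Nestin pair had a median of 0 in both libraries, with 53.0% and 57.5% of pairs at 0. Sox2 thus started below Nestin and ended above it. In the 500 kb to 1 Mb range the medians were 4 and 2.34 for Oct4, 3 and 1.75 for Olig1-Olig2, 1 and 0.584 for Klf4, and 0 and 0 for Nanog, an order of levels that differs from the order of slopes.

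Zeros weigh on these slopes. Without pairs at 0 reads in either library the slopes were shallower in all 7 regions, at -0.50 for Sox2, -0.63 for Nanog, -0.66 for Olig1-Olig2, -0.72 for Klf4, -0.87 for Nestin, -0.90 for the gene desert and -0.92 for Oct4. Sox2 remained the shallowest. The gene desert changed least, from -0.95, and ranked at the steep end because the other regions became shallower. It spans only 196 kb and had 0.52% and 1.22% of pairs at 0, so its slope rests on shorter distances than theirs. The authors' predicted signal, an expected contact value per pair that they deposited beside the counts, had slopes of -0.71 and -0.71 for Sox2 and -1.40 and -1.28 for Nestin over the same distances.

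**Figure D1:**
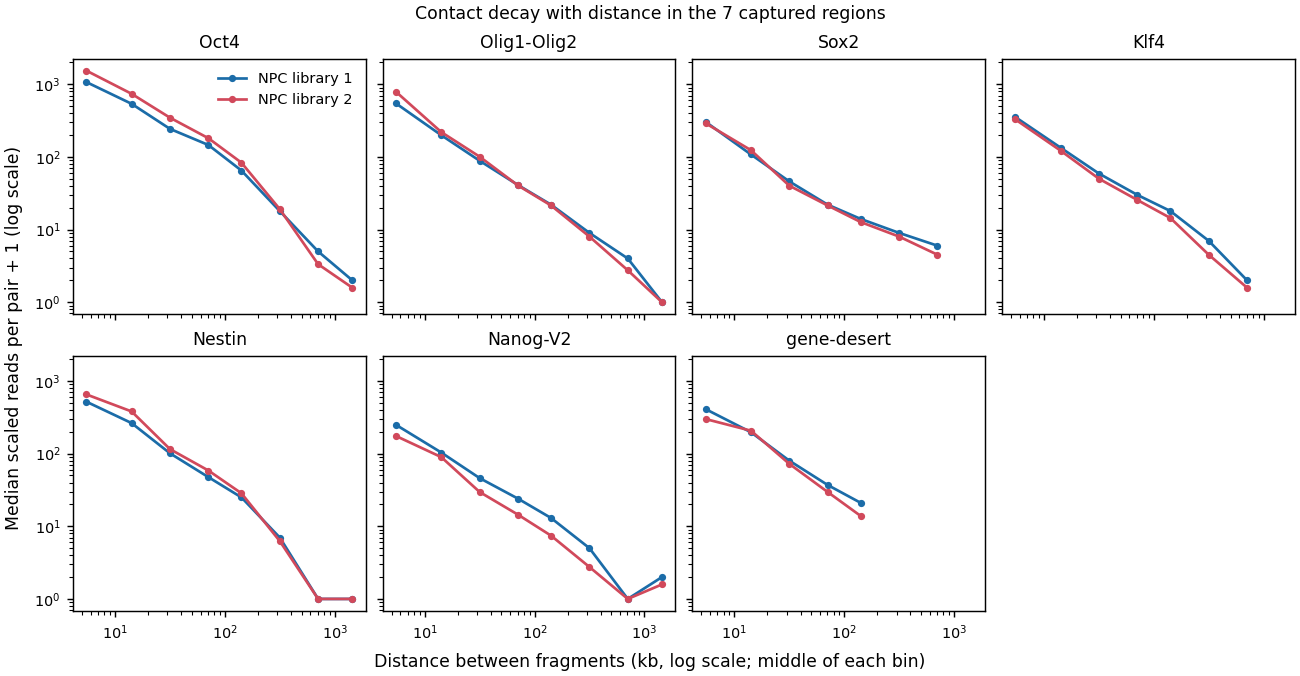
Median scaled reads per pair plus 1 (log axis) against the distance between fragments in kb (log axis), one panel per region, one line per NPC library, points at the middle of each distance bin. The Sox2 lines flatten beyond 100 kb and end at a median of 5 and 3.51 reads, and the Nestin and Nanog lines reach a median of 0 reads in the bin from 500 kb to 1 Mb.

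Each count was next set against what its distance and its 2 primers would give. The log2 observed over expected value is log2(count + 1) minus a smooth curve of distance and minus the median level of each primer, per region and library, so that 1 stands for 2-fold above expected. A contact is called strong where this value was 1 or more in both NPC libraries. Of all 86767 pairs, 7390 (8.52%) were strong, and 9064 (10.4%) were at -1 or less in both. These values correlated weakly between libraries over all pairs (r = 0.388), and better over the 36791 pairs with 10 or more reads in both (r = 0.661, from 0.552 in Sox2 to 0.731 in Oct4). The points share primers and depth, and these correlations are descriptions. Of pairs at 1 or more in library 1, 48.1% were also at 1 or more in library 2, where 20.1% of all pairs were. In the other direction the shares were 42.4% and 17.7%.

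With this expectation, strong contacts were spread unevenly over the regions. In Oct4, 2685 pairs (12.0%) were strong, in Nestin 871 (9.18%), in Olig1-Olig2 1474 (8.66%) and in Nanog 608 (8.43%), the last 3 within 1 percentage point of the 8.52% over all pairs. Klf4 with 865 (5.86%) and Sox2 with 873 (5.68%) lay below it, and the gene desert had 14 of 575 (2.43%). The order was similar from 20 to 150 kb, with 11.5% in Oct4, 8.91% in Olig1-Olig2, 8.34% in Nestin, 8.31% in Nanog, 4.36% in Klf4, 3.82% in Sox2 and 2.16% in the gene desert. The spread of the values moved with these shares: their SD over pairs was 1.55 and 1.98 on the log2 scale in Oct4, 1.26 and 1.47 in Sox2 and 0.78 and 0.79 in the gene desert, where the median pair had 54 and 70 reads against 10 and 14 in Oct4. Its part in the shares was not tested. Among pairs with 10 or more reads in both libraries 5223 (14.2%) were strong, with 20.6% in Oct4, 9.29% in Sox2 and 3.08% in the gene desert.

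The share of the gene desert depends on the expectation used. With distance alone as the expectation, 27.3% of its pairs were at 1 or more in both libraries, the highest share of the 7 regions, against 26.3% in Sox2 and 23.2% in Nestin. With the authors' predicted signal as expectation it was 5.74%, between 5.22% in Klf4 and 7.10% in Oct4. The gene desert thus had the lowest share only with the expectation made here from distance and primer levels. The other regions drew together as well. With distance alone all 7 shares lay between 23.2% and 27.3%, with Oct4 at 26.5%. With the authors' predicted signal they lay between 5.22% and 7.10%, with Sox2 at 5.49%. The wide gap between Oct4 and Sox2 or Klf4 thus belongs to the expectation made here. Why the shares moved was not tested.

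**Figure D2:**
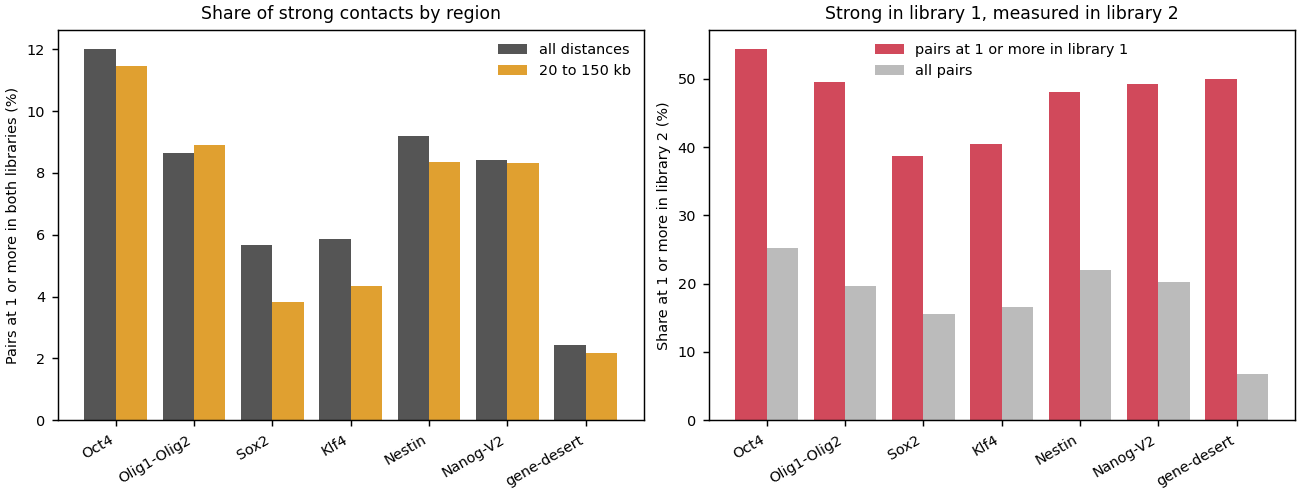
Left, the share of pairs (%) at 1 or more on the log2 observed over expected scale in both NPC libraries, by region, over all distances and from 20 to 150 kb. Right, the share of pairs (%) at 1 or more in library 2, among pairs at 1 or more in library 1 and among all pairs. Oct4 has 12.0% strong contacts and the gene desert 2.43%, and in each region the share reached in library 2 is higher among pairs that were high in library 1.

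The pairs with the highest values that recurred in both libraries were mostly single products. The 2 highest of each region, at 20 kb or more and with at least 50 reads in each library, are given here. In Oct4, FOR406 with REV190, the third largest pair of the table, was 14.43 and 15.09 above expected on the log2 scale. FOR354 with REV116, 960 kb apart, had 90998 and 197931 reads and values of 12.63 and 11.95. In Klf4, FOR267 with REV075, 530 kb apart, had 114050 and 164856 reads and values of 11.04 and 10.96. FOR353 with REV266, 233 kb apart in the same region, had 11181 and 38264 reads. In Nanog, FOR106 with REV174, 276 kb apart, had 10155 and 10548 reads, and FOR339 with REV118, 768 kb apart, had 1021 and 2077 reads. In Nestin, FOR165 with REV258, 430 kb apart, had 4697 and 20191 reads, and FOR013 with REV220, 842 kb apart, had 308 and 728 reads. Each of these stood far above the expected level in both libraries.

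In Olig1-Olig2 the 2 highest were FOR138 with REV241, 329 kb apart, with 12657 and 12931 reads, and FOR105 with REV003, 367 kb apart, with 753 and 2149 reads. In Sox2 both shared the reverse fragment REV240. Its pair with FOR197, 121 kb away, had 3603 and 10064 reads and values of 5.10 and 4.99, and its pair with FOR165, 243 kb away, had 3905 and 5565 reads and values of 6.49 and 4.89. In the gene desert both shared FOR043, which had 2436 and 6365 reads with REV021, 81.1 kb away (2.37 and 1.82), and 3319 and 9760 reads with REV036, 29.7 kb away (2.30 and 1.70). The highest contacts of the gene desert were thus lower than those of the other 6 regions on the log2 scale. They were the highest of only 575 pairs within 196 kb, against 7209 pairs or more over longer spans in the other regions.

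The pairs next to these contacts were not high with them. Of the 14 contacts, 13 had at least 4 neighbours, which are pairs within 20 kb at both ends that share neither fragment. Neighbour means ran from -1.06 to 0.47 in library 1 and from -1.39 to 0.63 in library 2. Of these 13 contacts, 0 had neighbours at 0.5 or more in both. Over all pairs with enough neighbours that share was 6.44%, so a count of 0 among 13 is close to that of pairs in general. For FOR406 with REV190 the 22 neighbours averaged -0.43 and -0.66. The closest to broad were FOR138 with REV241 in Olig1-Olig2, whose neighbours averaged 0.47 and 0.27, and FOR165 with REV240 in Sox2, at 0.40 and 0.63.

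Contacts that were high together with their neighbours were a smaller set. Of the 7254 strong contacts with enough neighbours, 1470 (20.3%) had neighbours at 0.5 or more in both libraries, against 6.44% of all 85576 pairs with enough neighbours. Neighbouring pairs share no fragment but lie within the same few kb, so this count is a description of clustering. Olig1-Olig2 had 439 such contacts (29.9%, against 7.71% of all its pairs). Nanog had 120 (20.8%, against 6.96%), Nestin 161 (18.5%, against 7.17%) and Oct4 475 (18.3%, against 8.44%). Sox2 had 153 (17.6%, against 4.47%), Klf4 122 (14.1%, against 3.66%) and the gene desert 0 of 14 (against 0%). The share among strong contacts was above that among all pairs in each of the 6 large regions, and its order partly follows the order over all pairs. The rule of neighbour support was added after the values had been seen.

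The 2 contacts of each large region with the highest lower neighbour mean are given here. This ranking favours pairs that lie side by side. In Sox2 they joined positions near 450 kb and 902 kb. FOR157 with REV315, 450 kb apart, had 83 and 175 reads, values of 3.26 and 2.29 and neighbour means of 1.67 and 1.67 over 25 pairs. FOR155 with REV315 had 174 and 418 reads, with neighbours at 1.51 and 1.81. These Sox2 contacts had far fewer reads than the single high pairs, but the pairs around them were well above expected on average. In Nanog the leading broad contact was FOR196 with REV291, 282 kb apart, with 86 and 127 reads, and neighbours at 1.67 and 1.86 over only 4 pairs. FOR192 with REV309, 352 kb apart, had 150 and 119 reads, with neighbours at 1.19 and 1.31 over 15 pairs. In Oct4, FOR095 at 435 kb met REV113 (73.3 kb away, 2084 and 8499 reads) and REV108 (59.0 kb away, 1777 and 4971 reads), with neighbours near or above 1.95 in both libraries.

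The leading broad contacts of Olig1-Olig2, Klf4 and Nestin spanned 38.2 to 109 kb. In Olig1-Olig2, FOR009 at 44.5 kb met REV001 (271 and 1043 reads) and REV003 (690 and 2756 reads) at the low end of the region, with neighbour means from 2.40 to 2.69. In Klf4, FOR273 met REV229 over 101 kb (406 and 618 reads) and FOR226 met REV274 over 109 kb (343 and 638 reads), with neighbours between 1.05 and 1.50. Both Klf4 contacts joined a place at 653 to 660 kb to one at 761 to 762 kb. In Nestin, FOR244 at 984 kb met REV236 (422 and 390 reads) and REV238 (458 and 1722 reads), 58.0 kb and 50.7 kb away.

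The number of strong contacts also differed among fragments. Of all 1464 fragments ranked together, the 147 with most strong contacts held 24.1% of the ends of strong contacts. Within the 6 large regions, the tenth of the fragments with most of them held 16.9% (Oct4) to 22.3% (Klf4). Regions differ in partners per fragment and in their share of strong contacts. What a random spread would give was not computed. In all, 42 fragments had none, 33 of these in the gene desert, where only 14 strong contacts fall on 48 fragments. The leading fragment in Oct4 was FOR406, strong with 40 of its 152 partners, and in Nestin FOR239, with 26 of 102. In Sox2 it was FOR157 at 452 kb, strong with 24 of 121 partners, whose median pair had 11 and 68 reads. In Olig1-Olig2 the leader was FOR049 (28 of 133), in Klf4 FOR013 (26 of 121) and in Nanog REV033 (19 of 89), and these had a median of 0 or 1 read a pair in each library, so a few reads made a pair strong there. In the gene desert FOR053 led with 5 of its 23 partners. Sox2 FOR157 is therefore the leading fragment that also takes part in the leading broad contact of its region.

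Domain boundaries were read from a contrast along each region. It is the mean log2 observed over expected value of pairs whose ends both lie left or both lie right of a position (same-side pairs), less the mean of pairs that cross the position (spanning pairs), within 100 kb on each side. A boundary is a local maximum with a contrast of 0.5 or more in both libraries. Of 604 positions, 65 (10.8%) reached 0.5 in both, and these made 16 boundaries: 6 in Oct4, 4 in Olig1-Olig2, 2 in Sox2, 2 in Klf4, 1 in Nestin and 1 in Nanog. The gene desert is too short for this reach. At a reach of 60 kb its contrasts lay between -0.11 and 0.16 in both libraries. The profiles of the 2 libraries followed each other closely, with r from 0.926 in Nanog to 0.981 in Oct4 over positions that share pairs with their neighbours. Called in each library alone, 17 of 18 boundaries of library 1 lay within 20 kb of one of library 2, and 17 of 19 the other way.

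The highest contrast was that of Nanog at 670 kb, 1.22 in library 1 and 1.71 in library 2 (1.47 ± 0.35, SD, n = 2). It lies in a gap without assayed fragments, between REV186 at 642 kb and FOR192 at 675 kb. Spanning pairs there averaged -0.80 and -1.04, and same-side pairs 0.42 and 0.67. The Sox2 boundary at 440 kb had 1.08 and 1.39 (1.23 ± 0.21), over 361 same-side and 341 spanning pairs. Its same-side pairs were near expected, at -0.10 and -0.05, and its spanning pairs were low, at -1.19 and -1.44. The spanning pairs thus lay farther from the expected level, which was itself fitted to the pairs of this region. In both libraries these 2 boundaries stood above every other boundary of the Sox2, Klf4, Olig1-Olig2 and Nestin regions. The Sox2 boundary at 440 kb overlapped those of Oct4 at 960 kb (1.13 and 1.04) and 550 kb (0.88 and 1.14).

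The Oct4 region, the longest, had the most boundaries, at 280, 550, 700, 840, 960 and 1630 kb. The highest were at 960 kb, with 1.13 and 1.04 (1.08 ± 0.06), and at 550 kb, with 0.88 and 1.14 (1.01 ± 0.19), and these overlapped. Klf4 had its higher boundary at 630 kb, with 1.01 and 0.96 (0.99 ± 0.03), and a lower one at 350 kb, with 0.55 and 0.53. The Nestin boundary at 810 kb had 0.95 and 1.05 (1.00 ± 0.07). It was the only one of its region called in both libraries, but 2 were called in library 1 alone, 3 in library 2 alone and 4 with the authors' predicted signal, so the number of Nestin boundaries and blocks is not settled. In Olig1-Olig2 the boundaries at 100, 470, 740 and 1030 kb were lower, led by 740 kb with 0.74 and 0.81 and 1030 kb with 0.78 and 0.75. The second Sox2 boundary, at 890 kb, had 0.54 and 0.61. It fell under 0.5 with a pseudocount of 5 (0.38), distance alone (0.42), reads thinned to equal depth (0.498) and a reach of 60 kb (0.42), and stood at 1.02 with the authors' predicted signal. The Sox2 block from 440 to 890 kb and the contacts between its edges, given below, rest on it. The outer boundaries of Olig1-Olig2 (100 and 1030 kb) and Sox2 (890 kb) lie at the first or last position the 100 kb reach allows, so the profile was not seen to fall on their far side.

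**Figure D3:**
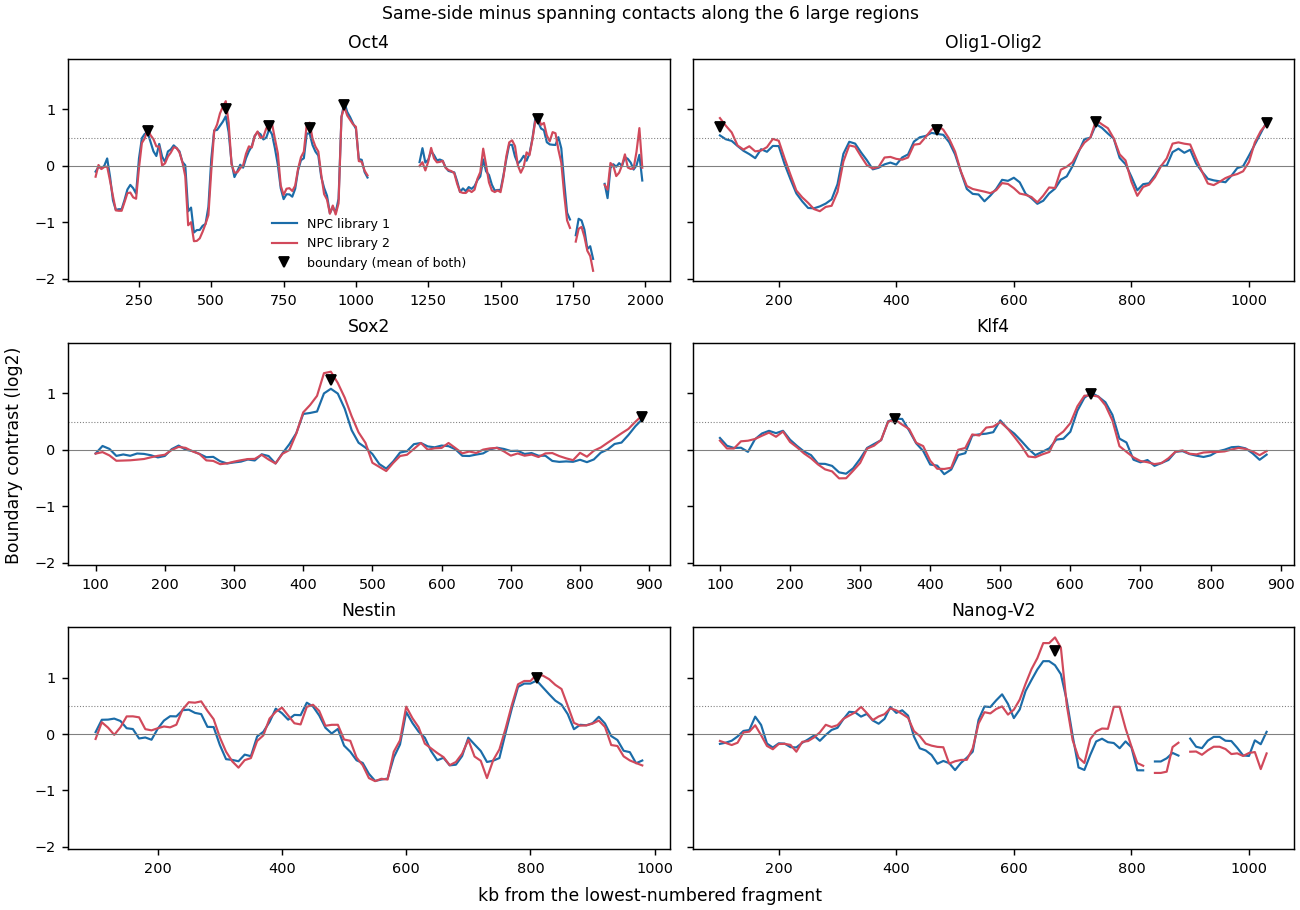
Boundary contrast (log2, same-side minus spanning pairs within 100 kb) against position in kb from the lowest-numbered fragment for the 6 large regions, one line per NPC library. Triangles mark the mean contrast of the 16 boundaries and the dotted line marks 0.5. Both libraries peak together at 440 kb in Sox2, 630 kb in Klf4 and 810 kb in Nestin. In Nanog library 1 peaks at 650 to 660 kb and library 2 at 670 kb.

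Which boundaries are called depends on the reach. At 60 kb, 11 of the 16 had a called boundary within 20 kb, at 160 kb 8 had one, and with the authors' predicted signal as expectation 15 had one. With distance alone as expectation, or a pseudocount of 5, 12 of the 16 had one.

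The stretches between boundaries formed 7 blocks in Oct4, with a median length of 270 kb, and 5 in Olig1-Olig2, also with a median of 270 kb. Sox2 had 3 blocks of 440, 450 and 102 kb, and Klf4 had 3 of 350, 280 and 359 kb. Nestin and Nanog had 2 each, of 810 and 276 kb and of 670 and 464 kb. The first and last block of a region end where the assay ends, so their full lengths are not known.

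**Figure D4:**
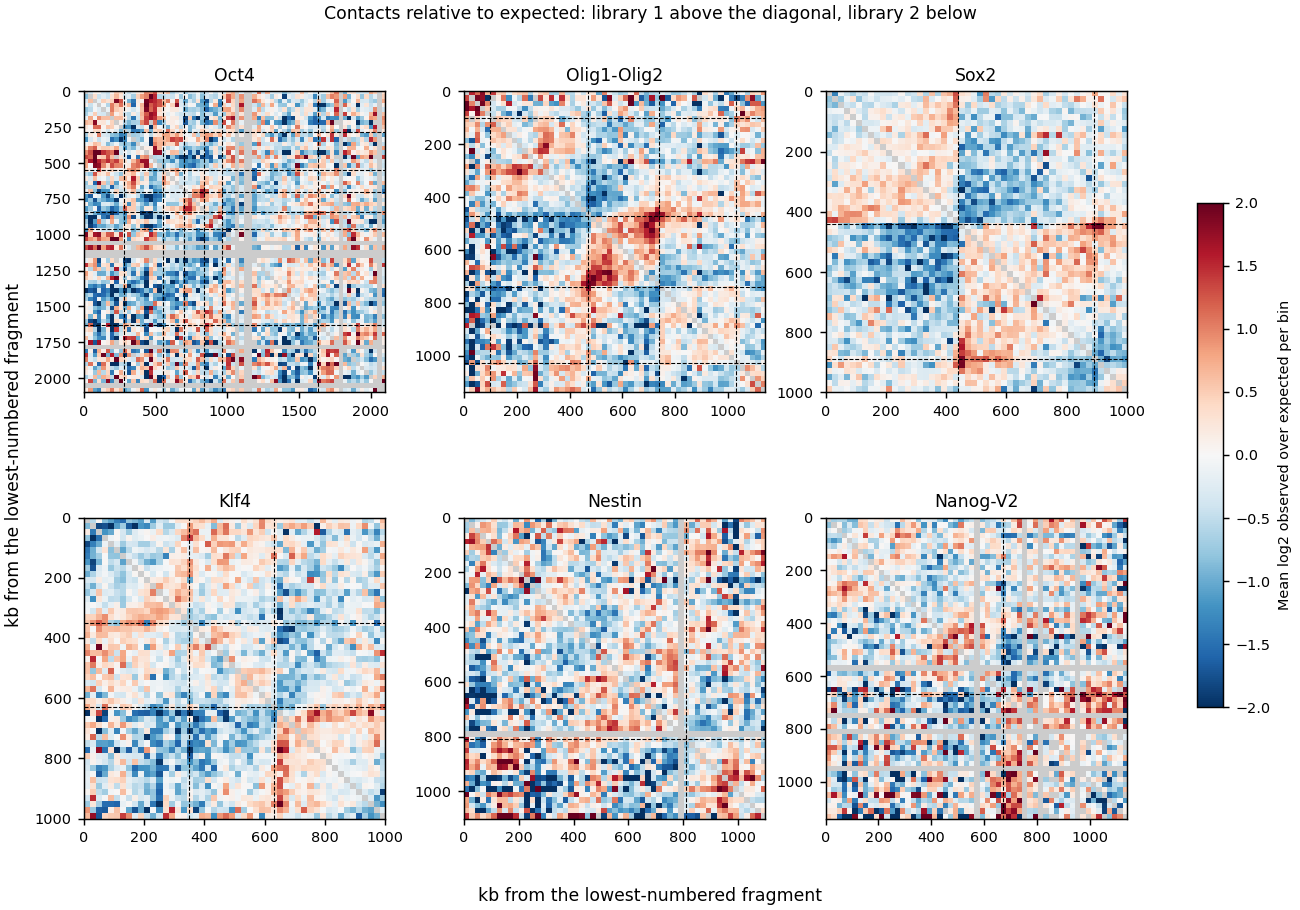
Mean log2 observed over expected value per bin for the 6 large regions, with library 1 above the diagonal and library 2 below it, axes in kb from the lowest-numbered fragment, grey for bins without pairs, and dashed lines at the boundaries. In Sox2 the block from 0 to 440 kb and the block from 440 to 890 kb are separated by a blue field of low crossing contacts, and a red spot lies where 440 kb meets 890 kb. In Olig1-Olig2 the block from 470 to 740 kb is red in both libraries.

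To measure the blocks apart from the library that drew them, blocks were taken from one library and pairs up to 300 kb were measured in the other. Sox2 had the highest difference between pairs within a block and pairs between neighbouring blocks, 0.88 in library 1 and 1.09 in library 2 on the log2 scale (0.99 ± 0.15, SD, n = 2), which overlapped that of Nanog, 0.88 and 1.01 (0.95 ± 0.09). Olig1-Olig2 had 0.56 and 0.75 (0.66 ± 0.14), Nestin 0.43 and 0.67 (0.55 ± 0.17) and Oct4 0.42 and 0.51 (0.46 ± 0.07), and these 3 overlapped in part. Klf4 was lowest, with 0.31 and 0.30 (0.31 ± 0.01). All 6 differences were above 0 in both libraries, and they stayed above 0 under each of the other expectations tried. The boundary profiles of the 2 libraries followed each other closely. Values above 0 therefore follow largely from how the blocks were drawn and are no separate result. In Sox2 the 5622 pairs within blocks were at 0.09 and 0.12 and the 2184 between blocks at -0.79 and -0.97. The expected level was fitted to these same pairs, most of them within blocks. The difference therefore cannot be divided into high pairs within and low pairs between blocks. The order depends on the expectation: with distance alone Sox2 was at 0.61 and Nanog at 1.24, and with the authors' predicted signal Klf4 was at 0.58.

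Single blocks differed as well. In Oct4 the block from 700 to 840 kb stood at 0.74 and 0.86 over 225 pairs, whereas the large block from 960 to 1630 kb stood at 0.08 and 0.10 over 1710 pairs. In Olig1-Olig2 the block from 470 to 740 kb stood at 0.68 and 0.71 over 868 pairs, and its neighbours at -0.03 and 0.06 (100 to 470 kb) and at 0.02 and 0.08 (740 to 1030 kb). The short block at the low end of Olig1-Olig2, 0 to 100 kb, stood at 1.04 and 1.39 over 49 pairs. In Klf4 and Nestin every block lay between -0.12 and 0.21 in both libraries, the highest being 810 to 1086 kb in Nestin with 0.16 and 0.21.

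Boundaries can also meet each other. This was looked at in pairs more than 200 kb apart, which the boundary contrast does not use, after the maps had been seen. In Sox2, the 117 pairs with an end within 30 kb of 440 kb and the other within 30 kb of 890 kb averaged 0.89 and 0.99, and 33.3% of them were strong contacts. Pairs with 1 end near a boundary averaged 0.06 and -0.00131 (9.86% strong), and pairs with none averaged -0.23 and -0.36 (4.84% strong). Both-end pairs exceeded pairs with no end near a boundary by 1.12 and 1.35 (1.24 ± 0.16, SD, n = 2). In Olig1-Olig2 the 482 both-end pairs averaged 0.26 and 0.21, 20.5% of them strong against 7.17% of pairs with no end near a boundary, a difference of 0.47 and 0.67 (0.57 ± 0.14). In Oct4 the difference was 0.17 and 0.26 (0.21 ± 0.06), but the shares of strong contacts were 13.2% and 13.2%. In Klf4 it was below 0, at -0.25 and -0.23 (-0.24 ± 0.01), with 2 of 135 both-end pairs strong.

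The 4 regions with more than 1 boundary thus differed in how their boundaries met. The mean differences of Sox2, Olig1-Olig2 and Oct4 stayed above 0 under each other expectation tried, but their sizes moved: with the authors' predicted signal Sox2 was at 1.25, Olig1-Olig2 at 0.82 and Oct4 at 0.75, and with distance alone Oct4 was at 0.97. With the authors' predicted signal Klf4 was at -0.01 ± 0.14 (SD, n = 2), a difference from 0 within the spread of the libraries. Pairs of one corner share fragments and are not replicates.

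Close to the corners, pairs were split by the side of each boundary they lay on: both ends inside the block, both outside it, or the first end inside and the second past the block. In Sox2, 36 pairs with both ends on the inner side of the 440 to 890 kb block averaged 1.32 and 1.34, and 16 pairs with the first end inside and the second past 890 kb averaged 2.04 and 1.85. The 20 pairs on its outer side averaged 0.53 and 1.01. In Olig1-Olig2, 17 pairs on the inner side of the 470 to 740 kb block averaged 1.90 and 2.20, and 39 pairs on its outer side averaged 1.01 and 1.08. The 15 pairs that ended past 740 kb averaged 1.16 and 0.91. The corner of the next Olig1-Olig2 block, 740 to 1030 kb, was at 0.48 and 0.60 over 36 inner pairs, and that of the block before it, 100 to 470 kb, was at -0.47 and -0.91 over 13. In Klf4 the 50 inner pairs of the 350 to 630 kb block were at -0.27 and -0.36 and the 20 outer pairs at -1.08 and -1.01. In both Oct4 corners the pairs past the block were highest in both libraries, whereas the inner and outer pairs changed order. For 280 to 550 kb, 10 inner pairs were at 0.32 and -0.06, 13 outer pairs at -0.22 and -0.21 and 12 pairs past 550 kb at 0.60 and 0.42. For 960 to 1630 kb, 12 inner pairs were at -0.16 and 0.37, below the 12 outer pairs at 0.08 and 0.53 in both libraries. Only 4 pairs lay past 1630 kb, at 0.81 and 1.00.

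**Figure D5:**
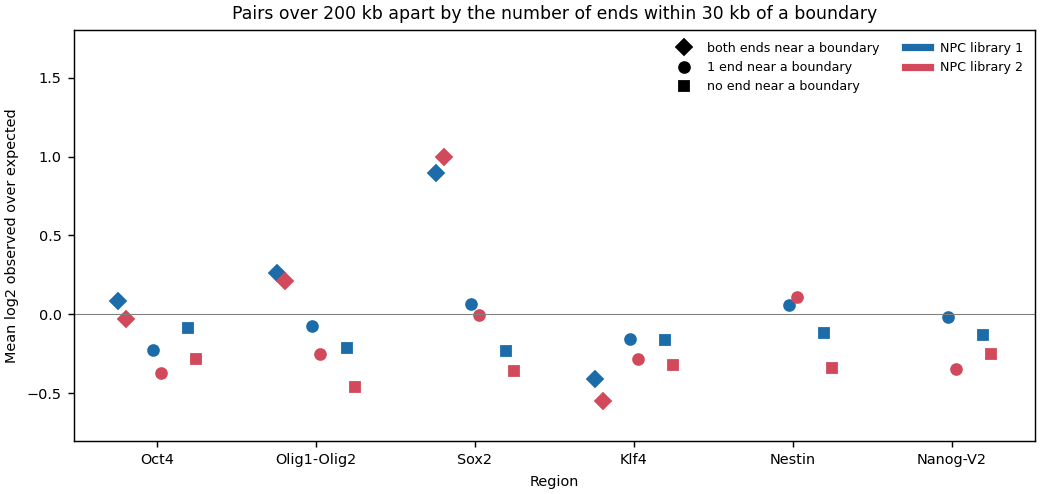
Mean log2 observed over expected value of pairs more than 200 kb apart, by region and by the number of ends within 30 kb of a boundary (diamond for both ends, circle for 1 end, square for none), one colour per NPC library. Sox2 both-end pairs are at 0.89 and 0.99, above its other pairs in both libraries, and Klf4 both-end pairs are at -0.41 and -0.55, below its other pairs.

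The same maps were finally cut into windows of 60 by 60 kb with at least 4 pairs, and the mean of the 2 libraries was tested against the expected level of 0 with limma. Of 1474 windows, 176 (11.9%) were above expected and 423 (28.7%) below it at a Benjamini-Hochberg adjusted p under 0.05, and 775 had an unadjusted p under 0.05. Pairs have a median of 0 in each region and library but a mean between -0.07 and -0.26, which favours windows below. The split moves with the expectation: it was 536 above and 376 below with distance alone, 264 and 367 with a pseudocount of 5, and 29 and 562 with the authors' predicted signal. The p-values measure the spread between 2 libraries only.

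Read against 11.9% above and 28.7% below over all windows, Olig1-Olig2 had 28 above (14.7%) and 73 below (38.4%) of 190, and Sox2 22 (14.4%) and 51 (33.3%) of 153. Klf4 had 16 and 48 of 153, Oct4 71 and 163 of 593, Nestin 19 and 45 of 187 and Nanog 20 and 43 of 188. The gene desert had 0 of 10 in either direction by limma, with 0 at an unadjusted p under 0.05. No window of the gene desert was thus told apart from its expected level at this number of libraries.

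Several of the highest and lowest windows lay at the boundaries named above. Windows average the same log2 values used for the boundaries and for the pairs between them, so this overlap is no separate result. In Sox2 the highest window joined 420 to 480 kb with 840 to 900 kb, at 0.90 and 1.02 over 136 pairs (0.96 ± 0.08, SE, limma adjusted p = 0.0053). The lowest Sox2 window crossed the 440 kb boundary, joining 360 to 420 kb with 480 to 540 kb, at -1.12 and -1.44 over 120 pairs (-1.28 ± 0.10, SE, limma adjusted p = 0.0053). In Olig1-Olig2 the lowest window crossed the 470 kb boundary, 360 to 420 kb with 480 to 540 kb, at -1.33 and -1.41 over 55 pairs. Its highest window was the low end of the region, 0 to 60 kb with itself, at 1.54 and 1.63 over 9 pairs. In Klf4 the lowest window crossed the 630 kb boundary, 360 to 420 kb with 660 to 720 kb, at -1.13 and -1.30 over 135 pairs, and the highest lay just past it, 660 to 720 kb with itself, at 0.59 and 0.60 over 56 pairs. That highest Klf4 window turned below expected, to -0.69, with distance alone.

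In Nanog the lowest window joined 480 to 540 kb with 660 to 720 kb, the window that holds the 670 kb boundary, at -1.49 and -1.27 over 55 pairs. The highest joined 660 to 720 kb with 1080 to 1140 kb, at 1.23 and 1.42 over 25 pairs. In Oct4 the highest window joined 60 to 120 kb with 420 to 480 kb, at 1.86 and 1.98 over 11 pairs, across the 280 kb boundary. The lowest Oct4 window, 180 to 240 kb with 1560 to 1620 kb, was at -1.47 and -2.45 over 16 pairs, and rose to 0.41 with distance alone. In Nestin the highest window, 120 to 180 kb with 1080 to 1140 kb, was at 1.51 and 2.52 and the lowest, 600 to 660 kb with 1080 to 1140 kb, at -1.15 and -1.90. They rest on 4 and 5 pairs at the high end of the region, and the former fell to -0.49 with distance alone. All 12 of these windows were chosen among those called by limma, so their passing is no further result. With the authors' predicted signal the highest windows of Olig1-Olig2, Klf4, Nestin and Nanog no longer passed it, at limma adjusted p = 0.0607, 0.0651, 0.198 and 0.0793.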

How the data were processed

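Per the labels' protocols, 5C libraries were made from HindIII 3C templates with alternating primers. The authors deposited per-pair raw read counts and a predicted signal, their expected value for each pair, with the distance between fragments. The submitters' processing notes name Bowtie. Its settings, the genome build and the model behind the predicted signal are not given in the sources used here. Positions were rebuilt from distances by least squares, with a largest misfit of 0.556 bp. Depth was 15899829 and 42673906 reads.

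Observed over expected is log2(count + 1) minus lowess of log10 distance (span 0.3) and minus median primer effects (5 rounds). Decay used counts scaled by the TMM method of edgeR 4.0.16. Windows were tested with limma 3.58.1 (intercept only, trend on the number of pairs). The steps for observed over expected values, strong contacts, boundaries and windows were run on simulated data. The decay, neighbour, block and edge steps were not. The simulation added noise below the spread between the libraries and planted single contacts only in pairs with higher expected counts. It was a check of the code and gives no error rate for the real maps. Alternatives were pseudocount 5, distance only, the authors' predicted signal as expectation (0 reads entered as 0.25), lowess span 0.5, thinned reads, a minimum of 10 reads, DESeq2 1.42.0 size factors, library totals, other ranges, windows, reaches and thresholds, and 1 library left out. Other tools were Python 3.11.15, statsmodels 0.14.6 and R 4.3.3.

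Named were, per region, the 2 strong contacts at 20 kb or more with at least 50 reads in each library and the highest lower value, the highest and lowest called window, up to 2 boundaries, and the fragment with most strong contacts, with the 3 largest pairs of all. Further boundaries and the broad, block and edge values were chosen after their values were seen. Members and rules were chosen with earlier results of these data known. The table holds 20 further columns of per-sample values that were not used, 8 of them of NPC libraries. The ES libraries and protein binding peaks were not used.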

Additional observations from a re-analysis of the deposited data

How the results depend on the processing

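Decay slopes are given in the report from 10 to 150 kb (Oct4 -0.86, Olig1-Olig2 -0.94, Sox2 -0.85, Klf4 -0.92, Nestin -0.99, Nanog -0.92, gene desert -0.89) and without pairs at 0 reads (-0.92, -0.66, -0.50, -0.72, -0.87, -0.63 and -0.90 in that order). With library totals they were -0.94 for Olig1-Olig2, -0.65 for Sox2, -0.99 for Klf4 and -0.96 for Nanog, and with DESeq2 size factors -1.04 for Klf4. All slopes stayed below 0, and Sox2 had the shallowest mean each time. From 10 to 150 kb, however, its libraries (-0.850 and -0.858) overlapped those of Oct4 (-0.852 and -0.872).

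Strong contacts numbered 22157 with distance alone, against 7390 (Oct4 5926, Olig1-Olig2 4605, Sox2 4043, Klf4 3559, Nestin 2197, Nanog 1670, gene desert 157). One library alone, a rule met more easily, gave 15374 to 17428 (Oct4 4934 to 5627, Olig1-Olig2 2977 to 3358, Sox2 2253 to 2398, Klf4 2139 to 2454, Nestin 1809 to 2089, Nanog 1234 to 1463, gene desert 28 to 39). With the authors' predicted signal Oct4 had 1587, Nestin 546 and the gene desert 33, and with at least 10 reads Nestin had 572 and Nanog 398. From 20 to 150 kb there were 1258 (Oct4 314, Olig1-Olig2 332, Sox2 137, Klf4 157, Nestin 173, Nanog 136, gene desert 9), and with neighbours at 0.5 or more 1470 (475, 439, 153, 122, 161, 120 and 0 in that order), both rules being narrower by construction and added after the data had been seen. Of the 7390 contacts, 63.99% remained with distance alone, 53.3% with the predicted signal and 90.2% with reads thinned to equal depth.

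Windows above expected numbered 536 with distance alone and 29 with the predicted signal. Distance alone reversed 3 named windows: Oct4 180 to 240 kb with 1560 to 1620 kb (0.41), Klf4 660 to 720 kb with itself (-0.69) and Nestin 120 to 180 kb with 1080 to 1140 kb (-0.49). The cause was not tested. Boundaries numbered 25 with the predicted signal and 26 with a contrast of 0.3.

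Within minus between blocks moved with distance alone to 0.71 in Oct4, 0.61 in Sox2, 0.28 in Nestin and 1.24 in Nanog, and with the predicted signal to 0.82 in Olig1-Olig2, 0.58 in Klf4 and 0.81 in Nanog. A pseudocount of 5 gave 0.41 in Olig1-Olig2, 0.78 in Sox2, 0.31 in Klf4 and 0.61 in Nanog. Thinned reads gave 0.26 in Klf4 and 0.81 in Nanog, lowess span 0.5 gave 0.29 in Klf4 and blocks from the mean of both libraries gave 0.27 in Klf4.

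No paired analysis was possible because the 2 libraries form 1 group. Windows with 1 library left out could not be fitted, having no residual degrees of freedom. Pairs with few reads limit single contacts, and only 42.4% of pairs had 10 or more reads in both libraries.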
